A study of Mus musculus with 10 samples.

Results

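Binding of XBP-1 was mapped by chromatin immunoprecipitation and sequencing (ChIP-seq) in mouse liver, and 44 genes for plasma proteins that hepatocytes secrete were followed here through the authors' peak lists. The genes were chosen by name, as cargo of the hepatocyte secretory pathway, out of 21883 placed protein-coding genes. They comprise 13 genes for carrier and transport proteins, 9 for acute phase proteins, 12 for coagulation, 6 for protease inhibitors and 4 for complement. A gene was counted as called in a library when at least 1 peak summit lay between 5 kb before and 5 kb after its RefSeq span (GRCm38.p6, that is mm10).

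All livers came from C57BL/6J mice, and all 8 immunoprecipitations used an antibody to Xbp-1s. There were 2 libraries each from wild-type fasted mice (Fasted), wild-type fed mice (Fed), mice with a knockout of Ern1 in the liver (Ern1-LKO) and the wild-type mice that served as controls for that knockout (WT), beside 2 input libraries of wild-type liver DNA. The labels do not give age, the length of the fast, the feeding state of the Ern1-LKO and WT mice or the way Ern1 was deleted. They also do not say whether the libraries of a group came from separate animals. A p-value here is the share of divisions of the compared libraries with a difference at least as large as that seen. The spread between libraries may be technical, so it is not read as one between animals. Fasted and Fed libraries were called against 1 input and Ern1-LKO and WT libraries against the other, so groups were compared only within those pairs.

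XBP-1s is the transcription factor made when the endoplasmic reticulum (ER) stress sensor encoded by Ern1 splices Xbp1 mRNA. It is known for raising genes of the ER folding and transport machinery, through which every secreted protein passes. The hepatocyte is the main source of albumin, clotting factors, complement and acute phase proteins, so the genes described here encode the load that this machinery carries, as distinct from the machinery itself.

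The lists differed widely before any gene was considered. Kept tags were 8.38M and 9.62M (1 M is 1000000) in Fasted, 17.4M and 7.77M in Fed, 11.996M and 4.34M in Ern1-LKO and 14.1M and 9.18M in WT libraries. The lists held 53973 and 19237 peaks in Fasted, 82975 and 47357 in Fed, 698 and 30796 in Ern1-LKO and 6258 and 30327 in WT libraries. Ern1-LKO replicate 1 and WT replicate 1 held few peaks for their tags, and results that rest on them are given with and without them. Peak lists hold no measure of Ern1, so the deletion could not be checked. An ER folding list of 18 genes is given for reference. Of these, 18 and 18 were called in Fasted, 18 and 18 in Fed, 17 and 18 in Ern1-LKO and 18 and 18 in WT libraries. The list was chosen with earlier results of these data known, so these counts do not test occupancy. Kupffer cells are the other cells of liver whose marker genes were counted. Of 12 such genes, 8 and 1 were called in Fasted, 7 and 7 in Fed, 0 and 4 in Ern1-LKO and 0 and 3 in WT libraries. Beside both lists, the shares of all genes were 73.1% and 43.6% in Fasted and 76.1% and 71.2% in Fed libraries. In Ern1-LKO libraries they were 3.58% and 62.4%, and in WT libraries 19.6% and 65.0%. The share of Kupffer cell markers was below that of all genes in every list. A peak does not measure the cells present, and the part of the cell makeup in these results was not tested.

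The promoters of 4 genes show the range met here. Rbp4 had a peak near its start in 7 lists, Cp had a peak at its start in 1 list, Alb had none there in any list, and Hspa5, the main ER chaperone gene, is shown for contrast. Each sequence is from RefSeq, build GRCm38.p6, and runs 5′ to 3′ on the gene's strand from 250 bases before to 50 after a listed start. Capitals mark CCACG, or CGTGG, its reverse complement, in the plasma protein promoters, and the whole ERSE match in Hspa5. The windows are chr19:38124762-38125061 (minus strand) for Rbp4, chr3:19956999-19957298 (plus) for Cp, chr5:90460620-90460919 (plus) for Alb and chr2:34771840-34772139 (plus) for Hspa5.
Rbp4: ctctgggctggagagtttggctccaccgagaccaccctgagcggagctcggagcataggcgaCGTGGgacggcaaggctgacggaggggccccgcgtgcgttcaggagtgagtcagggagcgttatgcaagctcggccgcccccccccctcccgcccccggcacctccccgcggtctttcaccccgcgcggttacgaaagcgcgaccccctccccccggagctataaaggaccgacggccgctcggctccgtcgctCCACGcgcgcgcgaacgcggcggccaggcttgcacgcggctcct
Cp: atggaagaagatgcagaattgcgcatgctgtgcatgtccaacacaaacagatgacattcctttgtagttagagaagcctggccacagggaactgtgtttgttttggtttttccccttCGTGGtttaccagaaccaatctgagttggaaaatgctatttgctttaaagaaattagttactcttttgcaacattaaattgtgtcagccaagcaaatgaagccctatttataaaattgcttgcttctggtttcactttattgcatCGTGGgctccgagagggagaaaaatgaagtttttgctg
Alb: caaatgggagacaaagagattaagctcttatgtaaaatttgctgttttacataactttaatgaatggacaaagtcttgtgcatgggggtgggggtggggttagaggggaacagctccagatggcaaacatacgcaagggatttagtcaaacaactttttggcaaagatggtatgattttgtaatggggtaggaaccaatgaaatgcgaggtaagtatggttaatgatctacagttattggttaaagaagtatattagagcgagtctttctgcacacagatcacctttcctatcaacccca
Hspa5: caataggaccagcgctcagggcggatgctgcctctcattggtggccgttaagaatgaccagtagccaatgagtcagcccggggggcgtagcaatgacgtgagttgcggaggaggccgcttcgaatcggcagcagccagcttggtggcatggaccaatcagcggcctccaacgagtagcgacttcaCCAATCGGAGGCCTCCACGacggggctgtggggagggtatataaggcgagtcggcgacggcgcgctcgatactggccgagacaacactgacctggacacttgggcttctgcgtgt

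Of the 44 genes, 35 had a promoter in the sequence table and 9 did not (Ttr, Hp, Orm1, Serpina6, Plg, Kng1, Proc, C4b and Cfb). Motifs were searched on both strands. The ER stress response element ERSE (CCAAT and CCACG with 9 bases between them), its second form ERSE-II (ATTGG and CCACG with 1 base between them) and the unfolded protein response element UPRE (TGACGTGG) matched 0 of the 35 promoters, against 0.166%, 0.0629% and 0.823% of all 17491 promoters. At those shares few matches would be met among 35 genes. In the ER folding list, by comparison, 8 of 15 promoters held ERSE. The XBP-1 core CCACGT matched 1 of the 35, Rbp4, against 10.3% of all promoters. The shorter CCACG lies inside CCACGT, ERSE and ERSE-II, and both short motifs lie inside UPRE read on the other strand. It matched 6 of 35, namely Ahsg, Cp, Fetub, Itih3, Rbp4 and Serpinf2, against 40.4% of all promoters. In the ER folding list it matched 14 of 15. A match describes letters in this window and is not a binding site.

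Called plasma protein genes were fewer than the share of all genes in 6 of the 8 lists. No plasma protein gene was called in all 8, against 2.64% of all genes, a share at which few would be met among 44. The windows of the 44 genes cover 1.13 Mb and those of all 21883 genes 1181.5 Mb, so the former were shorter per gene. A shorter window has less room for a summit. The shares were not matched for window length, and its part in them was not tested. Of the 44 genes, 18 and 3 (40.9% and 6.82%) were called in Fasted libraries, where 73.1% and 43.6% of all genes were called. In Fed libraries 34 and 17 (77.3% and 38.6%) were called, against 76.1% and 71.2% of all genes. Fed replicate 1 was thus at the background and Fed replicate 2 below it. In Ern1-LKO libraries 0 and 12 (0% and 27.3%) were called, against 3.58% and 62.4% of all genes. In WT libraries 24 and 16 (54.5% and 36.4%) were called, against 19.6% and 65.0% of all genes. WT replicate 1 was the only list in which the share of plasma protein genes stood clearly above that of all genes, and the other list of the same group was below it. A further 60 secreted plasma protein genes, listed separately, were called in 33 and 16 Fasted, 51 and 28 Fed, 1 and 22 Ern1-LKO and 28 and 29 WT lists.

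**Figure D1:**
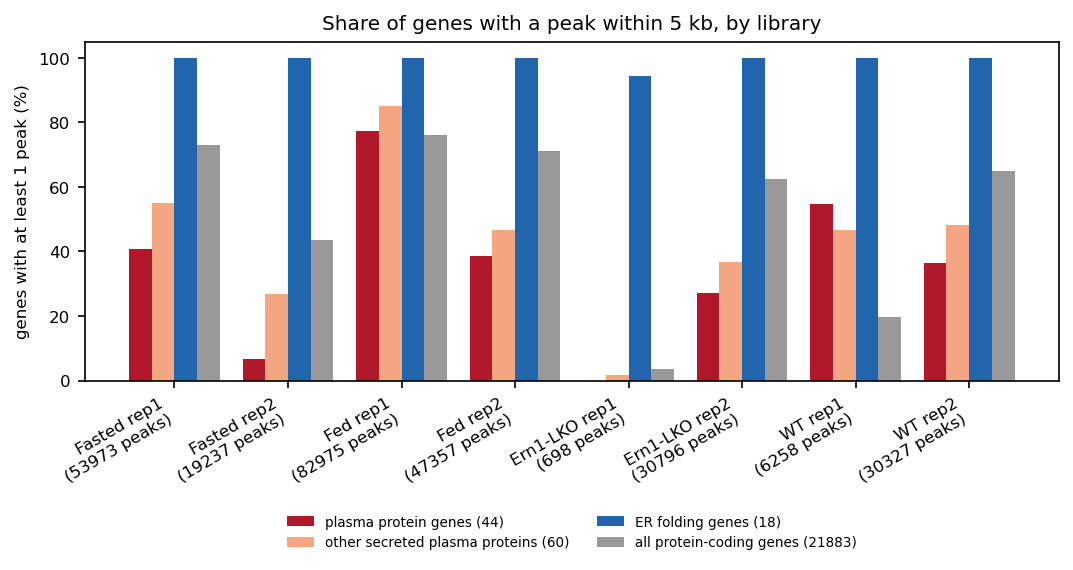
Share of genes with at least 1 peak within 5 kb (vertical axis, percent) in each of the 8 libraries, with the number of peaks in each list under its name; bars are the 44 plasma protein genes, the 60 other secreted plasma proteins, the 18 ER folding genes and all 21883 genes, with no error bars because each bar is 1 library. ER folding genes stood at 94.4% or more in all 8 libraries, while plasma protein genes ran between 0% in Ern1-LKO replicate 1 and 77.3% in Fed replicate 1.

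The number of libraries in which a gene was called also separated these genes from the annotation as a whole. Apcs, Saa4, Serpina6 and Serpind1 had no peak in any library, which is 4 of 44 genes, against 19.4% of all genes. Genes called in 1 or 2 libraries were 7 and 12 of the 44, or 15.9% and 27.3%, against 5.53% and 3.77% of all genes. In 3, 4 and 5 libraries there were 8, 3 and 5, or 18.2%, 6.82% and 11.4%, against 4.42%, 6.52% and 17.3% of all genes. C3, Lcn2 and Orm1 were called in 6 libraries, which is 6.82% against 28.2% of all genes, and Itih2 and Rbp4 in 7, which is 4.55% against 12.2%. No member was called in 8 libraries, against 2.64% of all genes. Without Ern1-LKO replicate 1, Itih2 and Rbp4 were called in every remaining library, but the matching share of all genes is not given here. Leaving aside Fed replicate 1 and WT replicate 1, the lists with the most and the second fewest peaks, 17 of 44 genes (38.6%) had no peak, against 23.4% of all genes. Of the 5 lists with over 10000 peaks that then remained, 7 genes (15.9%) were called in 4 or more, against 59.9% of all genes. These were C3, Itih2, Itih4, Lcn2, Orm1, Rbp4 and Vtn.

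**Figure D2:**
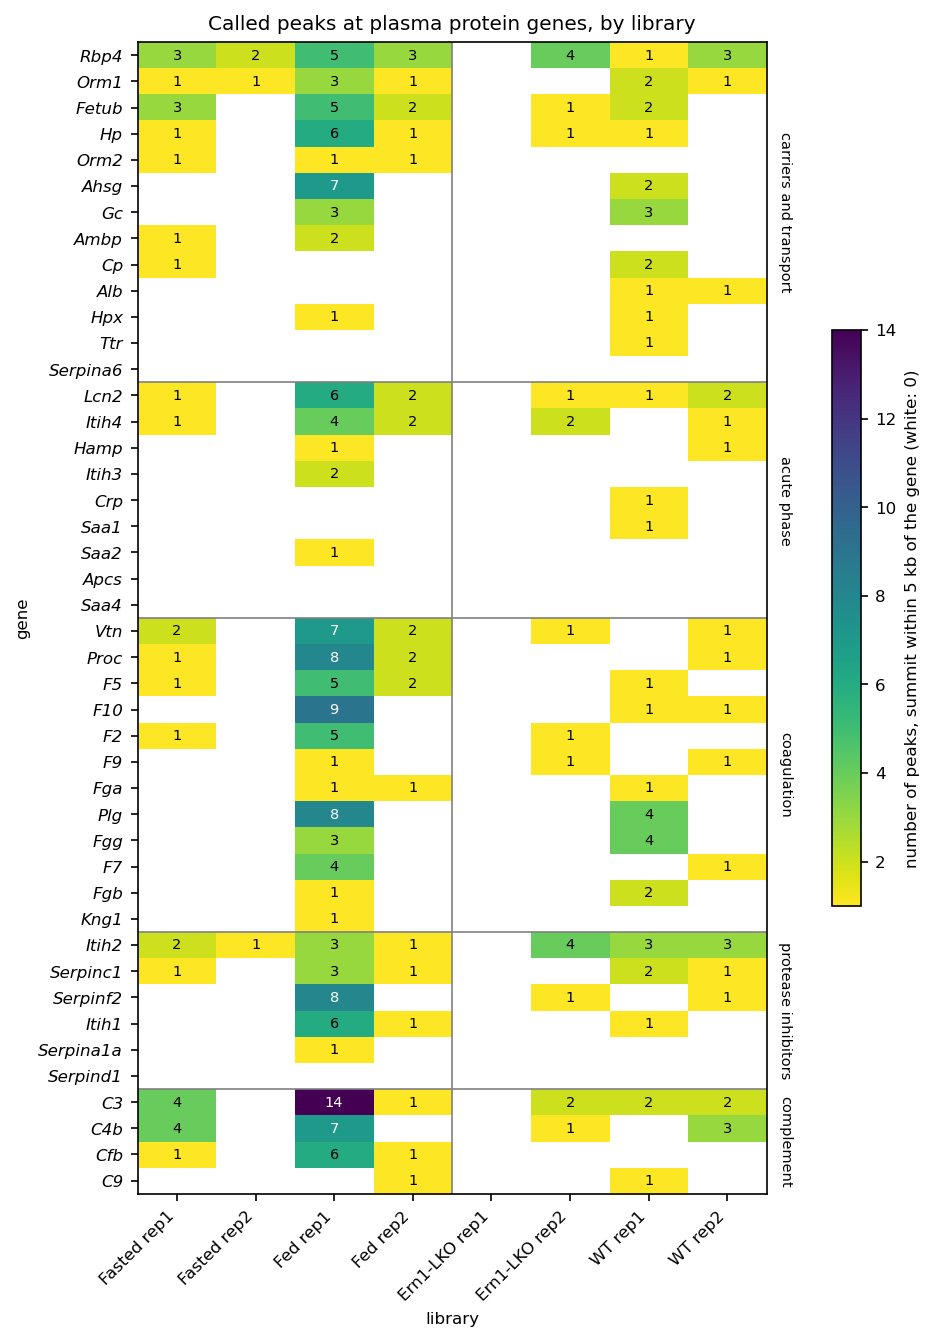
Number of called peaks within 5 kb of each of the 44 genes (rows, grouped by role) in each of the 8 libraries (columns); white is 0, the number is printed in each filled cell, and the vertical line parts the 2 pairs of groups. Fed replicate 1 fills most rows, Ern1-LKO replicate 1 fills none, and Rbp4 and Itih2 are the rows filled in all of the other 7 libraries.

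Among carriers and transport proteins, 7 and 2 of 13 were called in Fasted, 9 and 5 in Fed, 0 and 3 in Ern1-LKO and 10 and 3 in WT libraries. The shares of all genes, for this and the later roles, were 73.1% and 43.6% in Fasted and 76.1% and 71.2% in Fed libraries. They were 3.58% and 62.4% in Ern1-LKO and 19.6% and 65.0% in WT libraries. Rbp4, which encodes the carrier of retinol in plasma, was the member with the highest mean place in the lists. Over a region at its start (chr19:38124207-38125531) the authors' fold enrichment, the treatment pileup over the local background, was 15.9 and 7.06 in Fasted, 10.4 and 12.9 in Fed, 14.2 in Ern1-LKO replicate 2, and 3.76 and 15.5 in WT libraries. Ern1-LKO replicate 1 had no Rbp4 peak, and WT replicate 1 was the weakest of the other 7. By −log10 q, the best Rbp4 peak stood within the top 4.49% and 10.1% of the Fasted lists, the top 0.572% and 1.47% of the Fed lists, the top 10.1% of the Ern1-LKO replicate 2 list and the top 46.4% and 1.57% of the WT lists. It was in the upper part of 6 lists and in the middle of that of WT replicate 1.

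The CCACGT match of Rbp4 (read on the minus strand as the letters aCGTGG at the first capitals of the sequence above) lies at chr19:38124995-38125000. A called peak covered it in 6 of 8 libraries, namely Fasted replicate 1, both Fed, Ern1-LKO replicate 2 and both WT libraries. The summits of these peaks lay 286.5 bp from the centre of the match in Fasted replicate 1, 114.5 and 130.5 bp in Fed, 85.5 bp in Ern1-LKO replicate 2 and 89.5 and 76.5 bp in WT libraries. In Fasted replicate 2 the peak at the start lay beside the match and did not cover it. The summits thus lay between the match and the outer of the 2 listed starts in 5 libraries, and on the other side of the match in Fasted replicate 1. Inside the gene, the region chr19:38119322-38119697 had a fold of 14.3 and 10.1 in Fasted, 6.85 and 10.8 in Fed, 7.14 in Ern1-LKO replicate 2 and 9.60 in WT replicate 2. Another region, chr19:38120072-38120408, was called in Fasted replicate 1 (5.76), Ern1-LKO replicate 2 (12.5) and WT replicate 2 (7.44). The plot of summits shows these sites as columns of points that repeat between libraries. Exons and introns are not in the gene table used, so no site inside a gene is assigned to either.

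**Figure D3:**
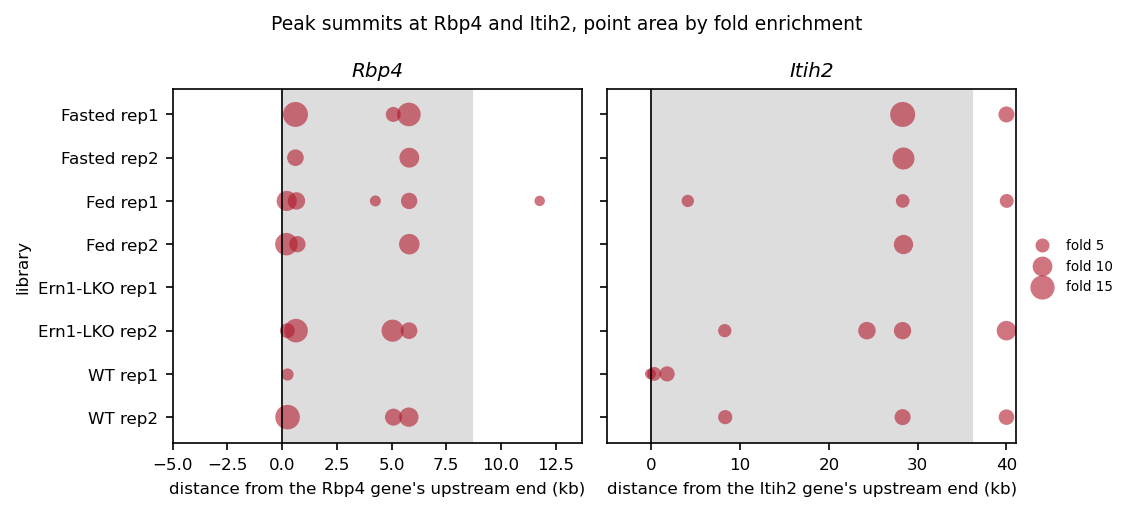
Peak summits at Rbp4 and Itih2 by library (rows), against distance in kb from the end of the gene span that holds its listed starts (horizontal axis); point area grows with the authors' fold enrichment and grey marks the gene span. At Rbp4 points recur near the start in 7 libraries and at 1 site farther inside the gene in 6, and at Itih2 they recur at 1 site inside the gene in 6 libraries, with WT replicate 1 at the start instead.

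Orm1, which encodes the acute phase glycoprotein orosomucoid, was called in both Fasted, both Fed, neither Ern1-LKO and both WT libraries. The region chr4:63347345-63347661 inside the gene had a fold of 13.9 and 8.77 in Fasted, 5.54 and 8.81 in Fed and 6.03 in WT replicate 2. WT replicate 1 had no peak there and a separate one with its summit at position 63346836, whose fold of 20.2 was the highest of any plasma protein gene in any library. It stood in the top 3.58% of that list. Fed replicate 1 had a peak near the same place, with its summit at 63346866 and a fold of 7.14. The call of Orm1 in both WT libraries therefore came from different sites. Orm1 has close copies in Orm2 and Orm3, and reads shared among such copies cannot be placed with certainty; the same holds for Saa1 and Saa2 and for Serpina1a. Orm2 was called in Fasted replicate 1 and both Fed libraries, with summits nearer the end of Akna in Fasted replicate 1 and Fed replicate 2 and of Orm3 in Fed replicate 1.

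The other carriers were called in fewer libraries. Alb, the gene of albumin, was called in the WT libraries alone, by a peak inside the gene in WT replicate 1 (fold 4.03) and by one beyond its downstream end in WT replicate 2 (6.87). These summits, at 90467788 and 90478243 on chromosome 5, were separate sites, and each stood past the middle of its list. Hp, the haemoglobin scavenger haptoglobin, had a region inside the gene with a fold of 6.19 in Fasted replicate 1, 4.08 and 6.22 in Fed and 6.16 in Ern1-LKO replicate 2; WT replicate 1 had a peak outside the gene. Fetub, a fetuin, was called in 5 libraries, and Ahsg, the fetuin that holds calcium phosphate in solution, in Fed replicate 1 and WT replicate 1. The strongest Ahsg peak by −log10 q had a fold of 5.04 inside the gene in Fed replicate 1 and 5.13 at 68 bp before the start in WT replicate 1. Gc, which carries vitamin D, and Hpx, which binds haem, were also called in Fed replicate 1 and WT replicate 1. The strongest Gc peak of WT replicate 1 had a fold of 8.15 at 1899 bp before the start, and those of Fed replicate 1 lay inside the gene, where the one with the highest −log10 q had a fold of 4.83. Cp, the copper carrier ceruloplasmin, was called in Fasted replicate 1 (4.85, beyond the gene and inside Hps3) and in WT replicate 1 (8.06, at 36 bp after the start). Ambp was called in Fasted replicate 1 by a peak 34 bp from the end of Kif12, and in Fed replicate 1. Ttr, the thyroxine carrier, was called in WT replicate 1 alone, with a fold of 3.59, and Serpina6, the corticosteroid carrier, in none.

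Of 9 genes listed as acute phase, 2 and 0 were called in Fasted, 5 and 2 in Fed, 0 and 2 in Ern1-LKO and 3 and 3 in WT libraries. Lcn2, a siderophore-binding lipocalin, was called in 6 libraries. Its shared region, chr2:32381168-32382289, had a fold of 11.2 in Fasted replicate 1, 8.69 and 7.22 in Fed, 6.89 in Ern1-LKO replicate 2 and 5.67 in WT replicate 2. The region lies at the end of the neighbour 1110008P14Rik, which its summits were nearer to than to Lcn2. Itih4, an inter-alpha-trypsin inhibitor heavy chain, was called in 5 libraries. A region called in Fasted replicate 1 (4.83) and both Fed libraries (3.71 and 4.90) was nearest to the end of Mustn1, and those of Ern1-LKO replicate 2 and WT replicate 2 lay inside Itih4, with 5.61 and 6.61. Hamp, the gene of the iron hormone hepcidin, had a region near its start in Fed replicate 1 (4.33) and WT replicate 2 (6.49). Itih3 and Saa2 were called in Fed replicate 1 alone, and Crp and Saa1 in WT replicate 1 alone. Crp, which encodes C-reactive protein, had its peak 462 bp before the start with a fold of 4.29. Apcs and Saa4 had no peak.

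Of 12 coagulation genes, 4 and 0 were called in Fasted, 12 and 4 in Fed, 0 and 3 in Ern1-LKO and 6 and 5 in WT libraries. All 12 were called in Fed replicate 1, against 76.1% of all genes. None was called in Fasted replicate 2, against 43.6%, or in Ern1-LKO replicate 1, against 3.58%. Vtn, the adhesion protein vitronectin, had the most shared region, with a fold of 8.56 in Fasted replicate 1, 4.01 and 6.40 in Fed, 11.2 in Ern1-LKO replicate 2 and 6.79 in WT replicate 2. Its summits lay inside the neighbouring gene Sarm1 and nearer that gene's end than that of Vtn. Proc, the anticoagulant protein C, had a region inside the gene with 8.04 in Fasted replicate 1, 6.63 and 6.33 in Fed and 6.03 in WT replicate 2. F5, factor V, had a region at its start with 7.52 in Fasted replicate 1 and 3.82 and 4.06 in Fed libraries. It was not called in Fasted replicate 2.

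The fibrinogen chain genes Fga, Fgb and Fgg lie side by side on chromosome 3. Fga was called in both Fed libraries and neither Fasted library, by a peak inside the gene in Fed replicate 1 (5.47) and one downstream in Fed replicate 2 (8.57), which were different sites. In WT replicate 1, Fga had a peak 145 bp before its start (3.99). Fgb and Fgg were called in Fed replicate 1 and WT replicate 1 alone, and the Fgb summit of Fed replicate 1 was nearest to the end of Plrg1. In WT replicate 1 the strongest Fgb peak had a fold of 8.02 and stood in the top 10.6% of the list, and the strongest Fgg peak had 7.90 in the top 15.5%. Both lay outside their genes, 3157 bp beyond the downstream end of Fgb and 4416 bp before the start of Fgg. F10 was called in Fed replicate 1 and in both WT libraries, with a fold of 4.37 beyond the gene in WT replicate 1 and 3.97 at 489 bp after the start in WT replicate 2. That last peak also counts for F7, since the windows of F7 and F10 share summits, the only such pair among the 44. All summits counted for F7, in Fed replicate 1 and WT replicate 2, lay inside F10 and nearest to its end. F2, prothrombin, was called in Fasted replicate 1, Fed replicate 1 and Ern1-LKO replicate 2. Its Ern1-LKO replicate 2 summit lay inside F2 but nearest to the end of Ckap5. F9 was called in Fed replicate 1, Ern1-LKO replicate 2 (8.42) and WT replicate 2 (5.68), the last pair at 1 site inside the gene. Plg, plasminogen, was called in Fed replicate 1 and WT replicate 1, with 8 and 4 peaks, and Kng1, the kininogen gene, in Fed replicate 1 alone with a fold of 4.91.

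Of 6 protease inhibitor genes, 2 and 1 were called in Fasted, 5 and 3 in Fed, 0 and 2 in Ern1-LKO and 3 and 3 in WT libraries. Itih2, another heavy chain of the inter-alpha-trypsin inhibitor, carried a region inside the gene (chr2:10102182-10102517) with a fold of 16.0 and 12.4 in Fasted, 4.78 and 9.56 in Fed, 7.70 in Ern1-LKO replicate 2 and 6.62 in WT replicate 2. Its summits lay between 10102361 and 10102388 in the 6 libraries. WT replicate 1 had no peak there and 3 near the start instead, at 113 bp before it and at 314 and 1763 bp after it. In Fasted replicate 1 this was the plasma protein peak with the highest fold. Itih1 was called in both Fed libraries and neither Fasted library, by a region 122 bp after the start in Fed replicate 1 (5.52) and 148 bp after it in Fed replicate 2 (4.80). Its WT replicate 1 peak lay 1182 bp before the start. Serpinc1, antithrombin, was called in Fasted replicate 1, both Fed and both WT libraries, and the WT peaks lay at different sites inside the gene. Serpinf2, antiplasmin, was called in Fed replicate 1, Ern1-LKO replicate 2 and WT replicate 2, at the same summit, 75439360, in Fed replicate 1 and WT replicate 2. Serpina1a, an alpha-1-antitrypsin gene, was called in Fed replicate 1 alone with a fold of 5.03, and Serpind1, heparin cofactor II, in none.

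Of 4 complement genes, 3 and 0 were called in Fasted, 3 and 3 in Fed, 0 and 2 in Ern1-LKO and 2 and 2 in WT libraries. C3, the central component, held 4 and 0 peaks in Fasted, 14 and 1 in Fed, 0 and 2 in Ern1-LKO and 2 and 2 in WT libraries. The region of C3 called most often had a fold of 5.18 in Fasted replicate 1, 4.60 and 3.73 in Fed and 3.70 in WT replicate 2. These peaks recurred at 1 site, in the lower part of the lists of Fasted replicate 1, Fed replicate 2 and WT replicate 2. C4b was called in Fasted replicate 1, Fed replicate 1, Ern1-LKO replicate 2 and WT replicate 2. The Cfb region of Fasted replicate 1 (7.70) and both Fed libraries (5.24 and 6.24) lay inside its neighbour Nelfe. C9 was called in Fed replicate 2 inside the gene (5.06) and in WT replicate 1 nearest to Dab2 (3.86).

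**Figure D4:**
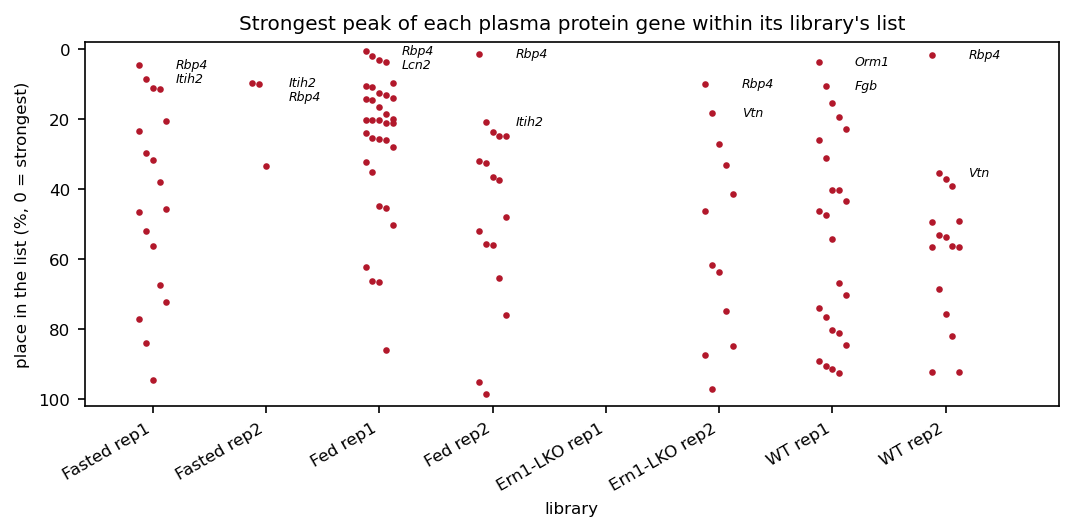
Place of the strongest peak of each called plasma protein gene within its library's list, ordered by −log10 q (vertical axis, percent, 0 at the top is the strongest peak of the list); each point is 1 gene, and the 2 best genes of each library are named. Points spread down the whole list in most libraries, and Rbp4 stands among the top 2 genes in 6 of the 8 libraries.

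The highest fold enrichment of a plasma protein peak was 16.0 and 12.4 in Fasted, 10.4 and 12.9 in Fed, 14.2 in Ern1-LKO replicate 2 and 20.2 and 15.5 in WT libraries, where the whole lists, with many more peaks, reached 115.2 and 77.2, 70.5 and 115.1, 103.2, and 54.9 and 90.6 in the same order. Their median was 6.12 and 9.43 in Fasted, 3.94 and 6.22 in Fed, 6.70 in Ern1-LKO replicate 2 and 4.79 and 6.03 in WT libraries. The medians of the whole lists were 6.69 and 7.48 in Fasted, 4.15 and 6.34 in Fed, 7.02 in Ern1-LKO replicate 2 and 5.19 and 6.47 in WT libraries. They lay slightly above the plasma protein medians except in Fasted replicate 2. There the plasma protein median was higher and came from only 4 peaks. When only summits nearest to the plasma protein gene's own end were counted, 12 and 3 genes were called in Fasted, 31 and 14 in Fed, 0 and 9 in Ern1-LKO and 23 and 13 in WT libraries. The shares of all genes under this rule were 67.7% and 37.8% in Fasted, 72.4% and 65.3% in Fed, 2.83% and 55.6% in Ern1-LKO and 16.0% and 58.4% in WT libraries. Outside Fed replicate 1 and WT replicate 1, 22 of the 44 genes were nearest to a summit in at least 1 library, against 72.7% of all genes. Within 500 bp of a listed start, 2 and 1 of the 35 genes with a promoter had a summit in Fasted, 17 and 4 in Fed, 0 and 2 in Ern1-LKO and 9 and 4 in WT libraries. Of all genes with a promoter, 54.4% and 24.3% had one in Fasted, 59.4% and 52.4% in Fed, 2.39% and 44.7% in Ern1-LKO and 10.8% and 49.7% in WT libraries. Peaks at starts were thus less common at plasma protein genes than at all genes in 7 libraries and more common in WT replicate 1, where they were those of Ahsg, C3, Cp, Crp, Fetub, Fga, Hpx, Itih2 and Rbp4.

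Fed replicate 1 and WT replicate 1 differed from the other libraries in how densely their peaks lay over these genes. The 44 windows cover 1.13 Mb and held 26.6 and 3.54 peaks per Mb in Fasted, 128 and 22.1 in Fed, 0 and 17.7 in Ern1-LKO and 36.3 and 20.4 in WT libraries. The windows of all genes held 34.7 and 11.6 in Fasted, 54.3 and 30.1 in Fed, 0.562 and 20.8 in Ern1-LKO and 4.10 and 21.7 in WT libraries. The density over plasma protein genes was thus above that over all genes in Fed replicate 1 and WT replicate 1. It was below that over all genes in both Fasted libraries and Fed replicate 2, and near it in WT replicate 2 and Ern1-LKO replicate 2. Peaks of these 2 libraries were also seldom shared. Of the peaks in the plasma protein windows, 25.0% in Fed replicate 1 and 19.5% in WT replicate 1 were overlapped by a peak of another library, against 45.7% and 52.0% of their whole lists. In Fasted replicates 1 and 2, Fed replicate 2, Ern1-LKO replicate 2 and WT replicate 2 the shares were 83.3%, 100%, 84.0%, 80.0% and 87.0%.

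**Figure D5:**
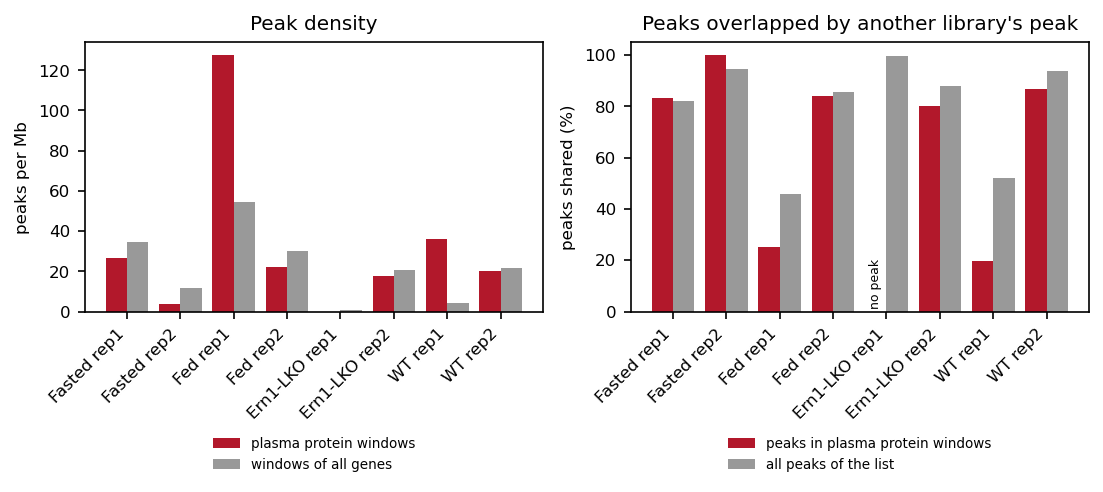
Peaks per Mb over the windows of the 44 genes and of all genes (left), and the share of peaks overlapped by a peak of any other library, for peaks in the plasma protein windows and for the whole list (right), in each of the 8 libraries; each bar is 1 library. Fed replicate 1 and WT replicate 1 stand above all genes in density (128 and 36.3 per Mb) and below their own lists in shared peaks (25.0% and 19.5%).

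Merged across libraries, the peaks formed 201 regions, of which 157 (78.1%) belonged to 1 library, 108 of them to Fed replicate 1 and 33 to WT replicate 1. Regions of 2 or more libraries numbered 44, those of 3 or more 18 and those of 5 or more 6. The last were the regions of Vtn, Lcn2 and Orm1, the first of Itih2 and the first 2 of Rbp4 described above. Fed replicate 1 and WT replicate 1 shared 8 regions. Of 26 regions called in at least 2 of the other 6 libraries, Fed replicate 1 also held 17 and WT replicate 1 held 1. The WT replicate 1 peaks at plasma protein genes therefore lay almost entirely at other sites than those that recurred.

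For fasting against feeding, fewer plasma protein genes were called in Fasted than in Fed libraries on average, but the groups overlapped. The shares of all genes were also lower on average and overlapped, at 73.1% and 43.6% in Fasted and 76.1% and 71.2% in Fed libraries. The Fasted libraries averaged 10.5 ± 10.6 genes and the Fed libraries 25.5 ± 12.02 (SD, n = 2 each), a difference of −15 (exact two-sided permutation test, p = 0.667; 2 libraries against 2 cannot give a p below 0.333). Fasted replicate 1, with 18 genes, was above Fed replicate 2, with 17. The difference was −7.5 without Fasted replicate 2, −6.5 without Fed replicate 1 and −23.5 without Fed replicate 2. Among the 19237 strongest peaks of each list, 8 and 3 genes were called in Fasted and 20 and 9 in Fed libraries, against 57.4% and 43.6% of all genes in Fasted and 58.6% and 56.6% in Fed. Among the 6258 strongest, 4 and 2 were called in Fasted and 4 and 1 in Fed libraries, against 30.9% and 19.0% of all genes in Fasted and 31.4% and 29.5% in Fed. The difference was then 0.5 (exact permutation test, p = 1), so its direction turned at that length, which was chosen after seeing the data. At that length Rbp4 was called in all 4 of these libraries.

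No plasma protein gene was called in both Fasted libraries and neither Fed library, against 0.0731% of all genes. Fga and Itih1 were called in both Fed libraries and neither Fasted library, 2 of 44, against 1.2% of all genes. Of the pair, only Itih1 was called at the same site in both Fed libraries. The number called in Fed alone was 13 without Fasted replicate 1 (29.5%, against 26.5% of all genes) and 17 without Fed replicate 2 (38.6%, against 5.68%). In the authors' pooled lists it was 20 (45.5%, against 9.01%).

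For the Ern1 knockout against its controls, fewer plasma protein genes were called in Ern1-LKO than in WT libraries, and the groups did not overlap. The shares of all genes did overlap, at 3.58% and 62.4% in Ern1-LKO and 19.6% and 65.0% in WT libraries. The Ern1-LKO libraries averaged 6.00 ± 8.49 genes and the WT libraries 20.0 ± 5.66 (SD, n = 2 each), a difference of −14 (exact two-sided permutation test, p = 0.333, the smallest this design can give). The Ern1-LKO replicate 1 list held 698 peaks and called no plasma protein gene, and without it the difference was −8. Without WT replicate 1 it was −10 (exact permutation test, p = 0.667). Among the 698 strongest peaks of each list, 0 and 0 genes were called in Ern1-LKO and 2 and 1 in WT libraries, against 3.58% and 3.83% of all genes in Ern1-LKO and 3.54% and 4.01% in WT. The WT genes were Fgb and Orm1 in replicate 1 and Rbp4 in replicate 2. Among the 6258 strongest peaks, with Ern1-LKO replicate 1 left out, 2 genes (Rbp4 and Vtn) were called in Ern1-LKO replicate 2, 24 in WT replicate 1 and 1 (Rbp4) in WT replicate 2, so the WT libraries differed more from each other than Ern1-LKO replicate 2 did from WT replicate 2. The shares of all genes at that length were 29.5% in Ern1-LKO replicate 2 and 19.6% and 31.0% in WT libraries.

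No plasma protein gene was called in both Ern1-LKO libraries and neither WT library, against 0% of all genes. Alb, F10, Orm1 and Serpinc1 were called in both WT libraries and neither Ern1-LKO library, 4 of 44, against 0.896% of all genes. None of the 4 rested on a shared site, since 0 regions were called in both WT libraries and neither Ern1-LKO library. The number called in WT alone was 8 without Ern1-LKO replicate 2 (18.2%, against 15.5% of all genes), 7 without WT replicate 1 (15.9%, against 6.14%) and 18 without WT replicate 2 (40.9%, against 2.03%). It was 0 among peaks with −log10 q of at least 10 and 0 among equal numbers of top peaks, against 0.672% and 0.923% of all genes. It was 1 at a fold of at least 5 and 10 in the authors' pooled lists, or 2.27% and 22.7%, against 0.544% and 7.5%.

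The authors' pooled lists, made from both libraries of a group, called 13 plasma protein genes in Fasted and 33 in Fed, and 5 in Ern1-LKO and 13 in WT. Against these stood 69.0% and 77.3% of all genes in Fasted and Fed, and 46.4% and 48.6% in Ern1-LKO and WT. The pooled Fed list called Cp, Saa1 and Saa4, and the pooled Ern1-LKO list Alb, none of which had a peak in either single library of that group. Saa4 was otherwise without a peak.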

How the data were processed

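XBP-1 ChIP-seq was analysed from the authors' 12 deposited peak lists, 8 of single libraries and 4 pooled. Per the submitters' processing notes, the tools were Bowtie2 2.2.5, MACS2 2.2.1, FastQC 0.11.3 and bcl2fastq, on mm10; the file headers name MACS 2.1.1.20160309 and a q limit of 0.05. Per the same headers, each peak has a pileup signal, a fold enrichment (a ratio to local background) and −log10 p and q values, all made by the authors. Peaks near the cutoff depend on tag depth and input, so counts from lists of unlike depth are not on 1 scale, and no reads were analysed here.

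Summits were assigned to genes with pandas 2.3.3 and a window of 5 kb. The code recovered 2000 of 2000 planted peaks over 21883 genes on simulated data. A peak list has no strand, and near-identical copies cannot be told apart. Regions are peaks merged at an overlap of at least 1 bp. Counts of genes per library were compared by exact permutation tests, and lists were read against all genes. Values are given for genes called in 1 group only and for up to 10 others by mean place in the lists; the remainder are accounted for by role, and values printed beyond that rule were chosen after they were seen. Alternatives were a window of 1 kb, −log10 q of at least 10, a fold of at least 5, overlap of the peak with the window, equal numbers of top peaks, the pooled lists, a replicate block, each library left out and, added after seeing the data, the nearest gene end and lists as long as that of WT replicate 1. The members and lists were chosen with earlier results of these data known. No genome was used, so sequence under summits outside the promoter table was not analysed here.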

Additional observations from a re-analysis of the deposited data

How the results depend on the processing

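Fasted minus Fed was −15, ranged between −23.5 and −6.5 with 1 library left out and was −4 at −log10 q of at least 10, but turned to 0.5 among the 6258 strongest peaks of each list, a setting chosen after seeing the data. Ern1-LKO minus WT kept its sign under every alternative run. It was −14, ranged between −20 and −8 with 1 library left out, and was −1.5 among equal numbers of top peaks. Among the 6258 strongest peaks, with Ern1-LKO replicate 1 left out, it was −10.5. That value rested on WT replicate 1, with 24 genes, since Ern1-LKO replicate 2 had 2 and WT replicate 2 had 1. With the replicate number as a block (replicate block), the differences were −15 (exact paired permutation p = 0.5) and −14 (p = 0.5), where 0.5 is the smallest p of 2 pairs. Deviations of same-numbered libraries correlated at 0.204 and 0.494, but 2 pairs do not establish pairing. Genes called in 1 group only moved more. With 1 library left out, Fasted only ranged between 0 and 1, Fed only between 2 and 17, Ern1-LKO only between 0 and 1, and WT only between 4 and 18. The 1 gene in Fasted only, without Fasted replicate 2, was 2.27%, against 1.18% of all genes. The 1 gene in Ern1-LKO only, without Ern1-LKO replicate 1, was 2.27%, against 3.36%. In the pooled lists Fed only was 20 (45.5%, against 9.01% of all genes). Ern1-LKO only was 2 there (4.55%, against 5.3%) and WT only 10 (22.7%, against 7.5%). At a fold of at least 5, Fed only was 1 (2.27%, against 0.567% of all genes) and WT only 1 (2.27%, against 0.544%). WT only was 0 at −log10 q of at least 10 and 0 among equal numbers of top peaks. Genes called in every list were 3 in the pooled lists and ranged between 0 and 2 with 1 library left out. The matching shares of all genes are not given here, so these counts are not read as a trait of plasma protein genes. The cause of these shifts was not tested. A gene without a peak is not shown to be unbound, since the shortest list held 698 peaks.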

Other observations

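Among the 60 other secreted plasma protein genes, those with no peak in any library included C1s1, C4bp, Serpina7, Mbl2 and Hamp2. Igfbp2, Lrg1, Cfi, Angptl6, Pros1 and Kng2 were called in 7 libraries each. Of all genes, 19.4% were called in no library, 12.2% in 7 and 2.64% in 8. Igfbp2, which encodes a binding protein of insulin-like growth factors, was nearest to a summit in all 7. So were Kng2 and Pros1, the gene of the anticoagulant protein S. Angptl6 was nearest in 6 libraries, Lrg1 in 5 and Cfi in 3. Masp2, a protease of the lectin pathway of complement, was called in all 8 libraries but was the nearest gene in 1 of them.

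WT replicate 1 alone called Crp, Saa1 and Ttr. That was 3 of the 44 plasma protein genes, or 6.82%, against 0.228% of all genes. Fed replicate 1 alone called Itih3, Kng1, Saa2 and Serpina1a, 4 of the 44 or 9.09%, against 3.38% of all genes. Both libraries had the most kept tags of their pair of groups, 17.4M in Fed replicate 1 and 14.1M in WT replicate 1, and the part of depth in these calls was not tested.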
